A study of Capra hircus with 6 samples.

Results

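The 36 genes described here encode the protein folding machinery of the endoplasmic reticulum (ER) and the sensors that adjust it: HSPA5 and other ER chaperones, the lectins and glucosyltransferase of glycoprotein folding, the disulfide enzymes, the unfolded protein sensors with their transcription factors, the factors of ER-associated degradation and the translocon. They were chosen by symbol from a list of names that was proposed with earlier results of these data known, and all 36 were found, each in 1 row, among the 28907 rows of the count table. Of these, 35 passed the low-count filter, and TRIB3 did not.

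RNA came from the medio-basal hypothalamus, the base of the brain that holds the arcuate nucleus and median eminence, of adult Alpine goats (Capra hircus). The follicular group (5 goats) was taken in January, during the follicular part of the oestrous cycle, and the anestrus group (8 goats) in mid-May, when goats do not cycle, so season and ovarian state differ together between them. Each of the 2 libraries of a condition is a random equimolar mix of RNA from its goats, here called a pool. How many goats make up a pool, and whether the pools share a goat, is not stated in the sources used. The luteal-phase libraries of the series were not analysed here. Library totals ran from 14553821 to 25292678 counts. All p-values rest on the spread between pools, 2 per group, and not on that between goats. The spread of each gene was drawn towards that of all genes, so its p-value does not measure its own pools alone. For the labelled tissue, 13 genes of the region were listed: neuropeptides, transcription factors and the enzyme TH. NKX2-1 had no matching symbol, and the other 12 passed the filter. Their summed level in CPM (read counts relative to the library total, scaled by TMM) was 1110 and 784 in the follicular pools. In the anestrus pools it was 1156 and 833 CPM. No other tissue was set beside them, so these levels do not test the label.

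Proteins bound for the cell surface, for secretion or for hormone granules enter the ER through the SEC61 channel and fold there. HSPA5 (also called BiP), an Hsp70 chaperone, binds unfolded stretches of them, calreticulin and calnexin hold their sugar chains, and disulfide isomerases form their cysteine bonds. When unfolded proteins accumulate, the membrane sensors ERN1, EIF2AK3 and ATF6 start the unfolded protein response, which raises transcription of chaperone and degradation genes. Cells with a large secretory output, such as those of the pituitary, are known for high levels of this machinery.

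HSPA5 was lower in the follicular pools than in the anestrus pools and was the 1 member of the 35 tested that passed the test. It stood at 979.5 and 969 CPM in the follicular pools, against 1921 and 1828 CPM in the anestrus pools, so that the pools of each group lay close together and the groups did not overlap. Its log2 fold change, follicular minus anestrus, was -0.94 ± 0.15 (standard error, adjusted p = 0.0402, edgeR's quasi-likelihood test with Benjamini-Hochberg adjustment over all genes), which is 1.92-fold higher in anestrus. Called genes were 0.191% of all 16756 genes tested in this direction and 0.0119% in the other, and HSPA5 ranked 25 by p-value among them. That split of 32 lower and 2 higher depended on the fit, with 173 lower and 127 higher without a count filter, 100 and 43 in DESeq2, 269 and 541 without anestrus pool 1, and 282 and 301 without anestrus pool 2. The size of the difference was nearly the same whichever pool was left out, from -0.94 to -0.91. The call was lost without follicular pool 1 (adjusted p = 0.742, edgeR) and without follicular pool 2 (adjusted p = 0.0705, edgeR), at log2 fold changes of -0.93 and -0.94. Over the 11 alternative fits its adjusted p ran from 4.97e-05 to 0.742 (edgeR, DESeq2 and limma-voom).

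**Figure D1:**
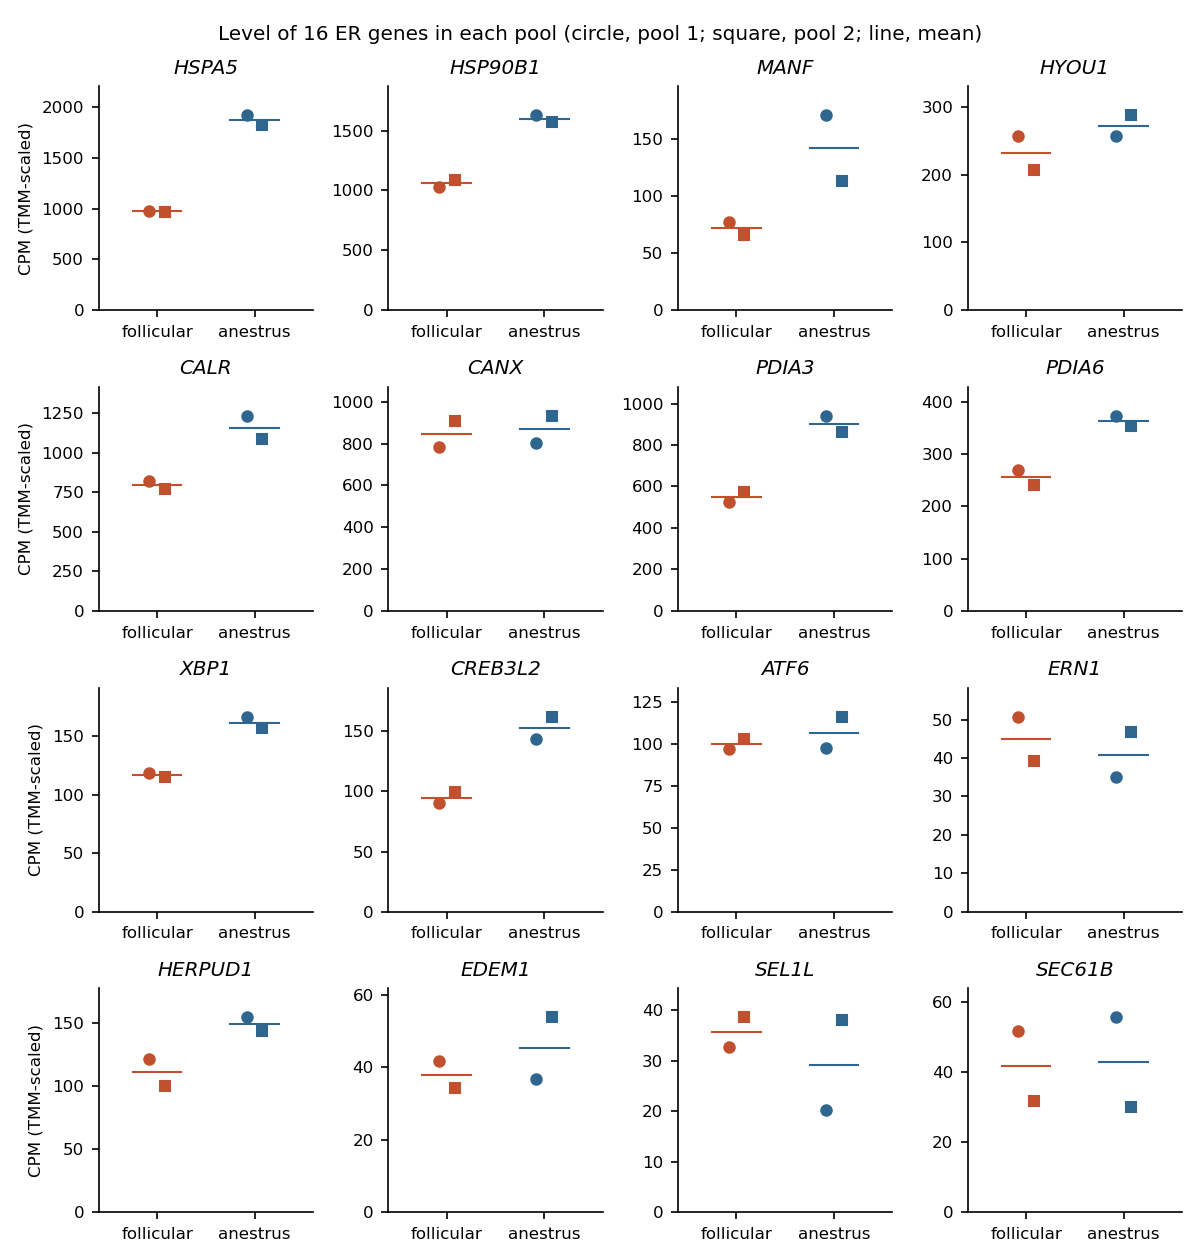
CPM (vertical axis, from 0) of 16 of the genes in the follicular pools (left, orange) and the anestrus pools (right, blue), with circles for pool 1, squares for pool 2 and a line at the mean of each group. HSPA5 stands at 979.5 and 969 CPM in the follicular pools, below 1921 and 1828 CPM in the anestrus pools, while CANX overlaps between the groups.

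The other members mostly had lower values in the follicular phase too, but none of them passed. Of the 35 tested, 30 had a negative log2 fold change and 5 a positive one, with a median of -0.30, beside a median of -0.00067 and 50.1% negative over all genes tested. Both follicular pools lay below both anestrus pools for 17 members (48.6%), beside 20.7% of all genes tested. The reverse order was found for 0 members, beside 17.6% of all genes tested. At an unadjusted p under 0.05, 11 members (31.4%) were lower in the follicular phase and 0 higher, beside 4.29% of all genes tested in the lower direction. Abundant genes are measured with less error, and among the 2480 genes with a mean of at least 100 CPM, a level chosen after the values were seen, 23.1% had both follicular pools below and 7.1% had an unadjusted p under 0.05 in that direction. Of the 18 members at that level, 13 had both follicular pools below and 11 had such a p. These counts are descriptions of that list.

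Summed over all 36 genes, the members took 0.688% and 0.681% of all counts in the follicular pools, against 0.963% and 0.949% in the anestrus pools. The summed level was 6847 and 6762 CPM in the follicular phase, against 9824 and 9433 CPM in anestrus, a ratio of 1.41 of anestrus over follicular. Without HSPA5 the sums were 5867 and 5793 CPM in the follicular phase, against 7903 and 7605 CPM in anestrus, a ratio of 1.33. Longer transcripts weigh more in such sums, since counts were not divided by length.

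**Figure D2:**
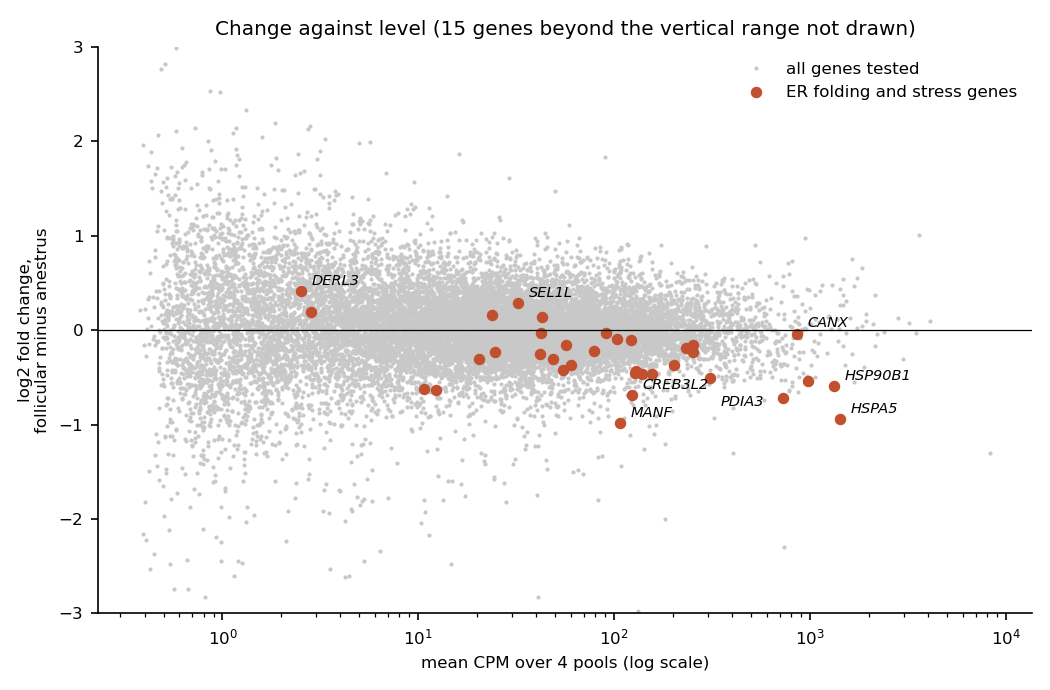
Log2 fold change, follicular minus anestrus (vertical axis), against the mean CPM of the 4 pools (horizontal log axis) for all genes tested (grey) and for the 35 members tested (orange). Among the members at high CPM, HSPA5, HSP90B1 and PDIA3 lie at -0.94, -0.60 and -0.71, while CANX, at a like CPM, lies at -0.04.

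Among the luminal chaperones and their cofactors, 9 of 10 had a negative log2 fold change, with a median of -0.43. HSP90B1, the Hsp90 of the ER lumen, was at 1030.2 and 1087 CPM in the follicular pools, against 1627 and 1571 CPM in the anestrus pools. The groups did not overlap, and its log2 fold change of -0.60 ± 0.15 did not pass (adjusted p = 0.235, edgeR), except without anestrus pool 1, at -0.57. A fit without a pool of a group cannot see the spread within that group. MANF, a small ER protein that binds HSPA5 and can be secreted, was at 77.4 and 66.4 CPM in the follicular pools, against 171 and 114 CPM in the anestrus pools. The groups did not overlap, but the anestrus pools lay apart. The log2 fold change of MANF was -0.99 ± 0.21, the most negative of the members (adjusted p = 0.17, edgeR), and it ran from -1.21 without anestrus pool 2 to -0.66 without anestrus pool 1. MANF passed in 6 of the 11 alternative fits, these 2 among them, with adjusted p from 1.27e-07 to 0.97 over all 11 (edgeR, DESeq2 and limma-voom).

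The J-domain cofactors, which hand clients to HSPA5 and stimulate its ATPase, did not pass either. DNAJC3, which also inhibits the kinase EIF2AK3, was at 99.8 and 115 CPM in the follicular pools, against 139 and 154 CPM in the anestrus pools, without overlap (log2 fold change -0.45 ± 0.17). DNAJB11 was at 46.4 and 47.1 CPM in the follicular pools, against 72.2 and 52.8 CPM in the anestrus pools (log2 fold change -0.42 ± 0.20, and -0.18 without anestrus pool 1). DNAJC10, a disulfide reductase of ER-associated degradation, had a log2 fold change of -0.19 ± 0.15, and DNAJB9, a cofactor known to be induced through XBP1, one of -0.11 ± 0.18. The pools of DNAJB9 overlapped, at 122 and 113 CPM in the follicular pools and 109 and 144 CPM in the anestrus pools. HYOU1, a nucleotide exchange factor of HSPA5, also overlapped, at 258 and 207 CPM in the follicular pools and 257 and 288 CPM in the anestrus pools.

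SDF2L1, a partner of DNAJB11, and CRELD2, an ER protein known to be induced by ER stress, were measured with few counts. SDF2L1 was at 4.25 and 1.74 CPM in the follicular pools and 3.65 and 1.72 CPM in the anestrus pools. CRELD2 was at 10.6 and 6.10 CPM in the follicular pools and 18.9 and 6.996 CPM in the anestrus pools. For both genes pool 1 was above pool 2 in each group, and the gap between the anestrus pools was larger than that between the group means. The log2 fold change of CRELD2, -0.62 ± 0.48, was -1.13 without anestrus pool 2, where it passed, and 0.26 without anestrus pool 1. Their 95% confidence intervals of the log2 fold change, -1.01 to 1.39 and -1.72 to 0.48, leave room for sizeable differences either way.

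In the lectin cycle, the soluble and the membrane-bound lectin gave different values. CALR, the soluble calreticulin, was at 821 and 772 CPM in the follicular pools, against 1232 and 1086 CPM in the anestrus pools. The groups did not overlap, and the log2 fold change of -0.54 ± 0.15 did not pass (adjusted p = 0.301, edgeR), except without anestrus pool 2, at -0.59. CANX, the membrane-bound calnexin, was at 786 and 907 CPM in the follicular pools and 804 and 932 CPM in the anestrus pools. Its groups overlapped, with a log2 fold change of -0.04 ± 0.16 and a 95% confidence interval of -0.39 to 0.32. UGGT1, which puts a glucose back on unfolded glycoproteins so that the lectins rebind them, was at 23.9 and 26.3 CPM in the follicular pools and 16.6 and 28.0 CPM in the anestrus pools, overlapping as well. The difference between CALR and CANX in their response was not tested.

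All 6 disulfide enzymes among the members had a negative log2 fold change, with a median of -0.48. For 5 of them both follicular pools lay below both anestrus pools. Over all genes tested, 50.1% were negative and 20.7% lay below in this way. The direction was not uniform outside the members. Of 30 other folding enzymes, 24 had a negative and 6 a positive log2 fold change, the highest that of PDIA2, 0.63 ± 0.40. PDIA3, the isomerase that works with calreticulin and calnexin, was at 525 and 573 CPM in the follicular pools, against 939.8 and 862 CPM in the anestrus pools. Its log2 fold change was -0.71 ± 0.15 (adjusted p = 0.164, edgeR), and it passed in 5 of the 11 alternative fits. Among these were the fits without anestrus pool 1, at -0.65, and without anestrus pool 2, at -0.73, and over all 11 the adjusted p ran from 0.00508 to 0.9997 (edgeR, DESeq2 and limma-voom). PDIA6 was at 270.4 and 241 CPM in the follicular pools, against 373 and 353 CPM in the anestrus pools, a log2 fold change of -0.51 ± 0.16. Both genes were tight within each group compared with the gap between groups.

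PDIA4 was at 147 and 114 CPM in the follicular pools, against 189 and 171 CPM in the anestrus pools. P4HB, the founding isomerase and also a subunit of collagen prolyl 4-hydroxylase, was at 201 and 150.3 CPM in the follicular pools, against 245 and 209 CPM in the anestrus pools. In both, the groups did not overlap, and for P4HB follicular pool 1 came close to anestrus pool 2 without reaching it. The log2 fold changes were -0.46 ± 0.18 for PDIA4 and -0.37 ± 0.18 for P4HB. Without follicular pool 2 the log2 fold change of P4HB was -0.18, and without follicular pool 1 it was -0.58. PDIA5 was at 8.93 and 10.2 CPM in the follicular pools, against 17.7 and 12.1 CPM in the anestrus pools. ERO1B, the oxidase that recharges the isomerases, overlapped by a small margin, at 15.4 and 21.0 CPM in the follicular pools and 24.0 and 20.8 CPM in the anestrus pools.

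**Figure D3:**
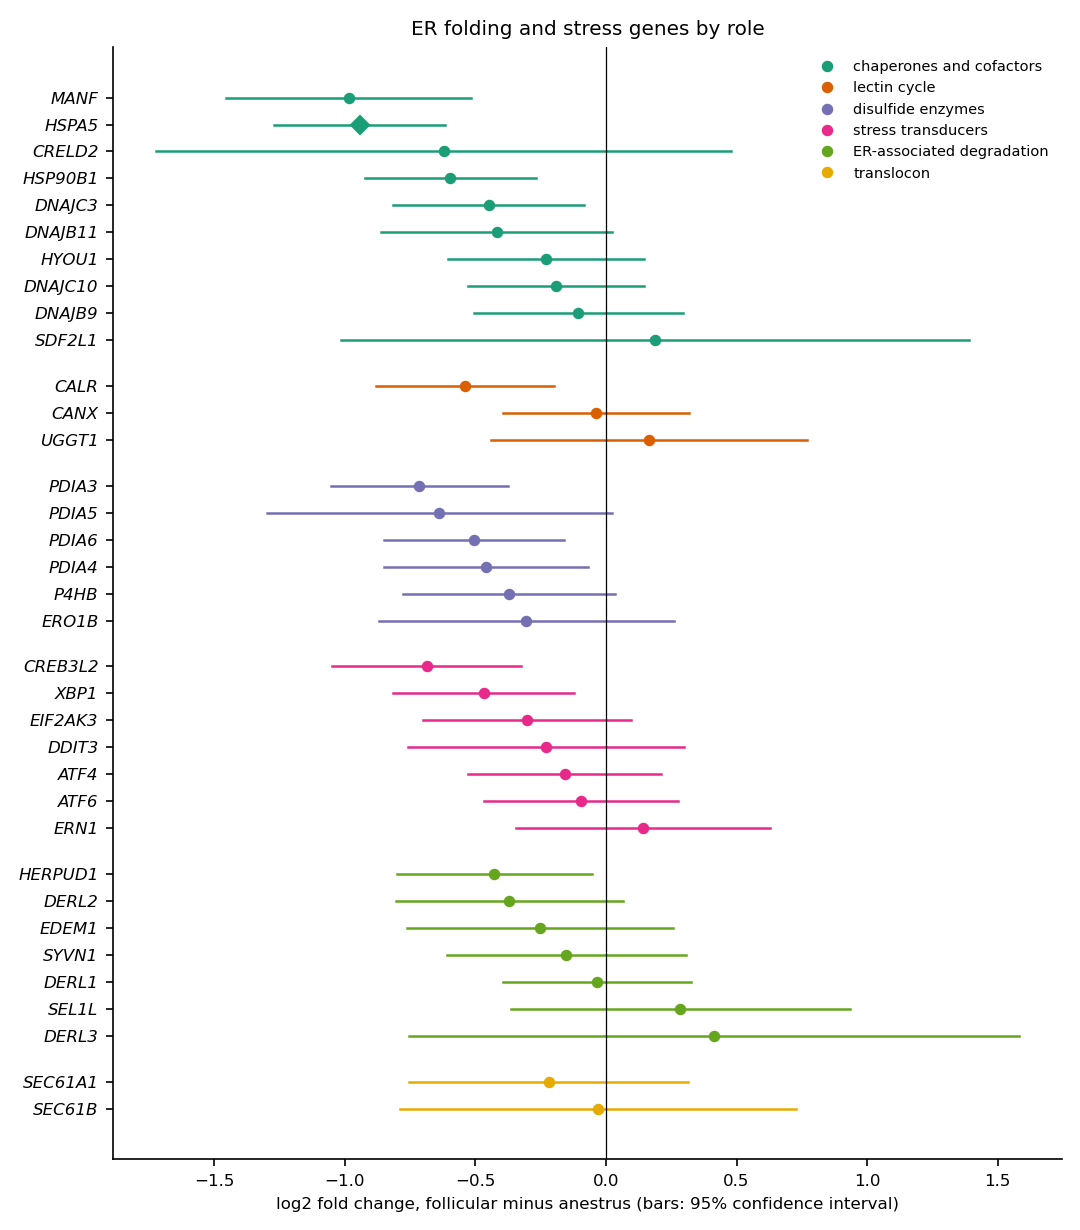
Log2 fold change, follicular minus anestrus (horizontal axis), of each of the 35 members tested, by role (colours), with bars for the 95% confidence interval. HSPA5, drawn as a diamond, passed the test, and all 6 disulfide enzymes lie left of 0, while the degradation genes lie on both sides of it.

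None of the 3 sensors of unfolded proteins passed, and 1 of them, EIF2AK3, did not overlap between the groups. ATF6, a membrane-bound factor that is cut in the Golgi and then activates chaperone genes, was at 96.8 and 103 CPM in the follicular pools and 97.3 and 116 CPM in the anestrus pools (log2 fold change -0.09 ± 0.17, 95% confidence interval -0.47 to 0.28). ERN1, the endonuclease that splices XBP1 RNA, was at 50.8 and 39.3 CPM in the follicular pools and 35.1 and 46.7 CPM in the anestrus pools (log2 fold change 0.14 ± 0.22). EIF2AK3, the kinase that slows translation, was at 42.3 and 45.3 CPM in the follicular pools, against 54.0 and 54.1 CPM in the anestrus pools, without overlap (log2 fold change -0.30 ± 0.18). Activity of the sensors is controlled after transcription and was not measured.

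Of the transcription factors, XBP1 and CREB3L2 had the lower values in the follicular phase. XBP1, counted here without regard to its splicing, was at 119 and 115 CPM in the follicular pools, against 167 and 157 CPM in the anestrus pools. Its log2 fold change was -0.47 ± 0.16 (adjusted p = 0.395, edgeR), and it stayed between -0.47 and -0.42 over the 11 alternative fits, without passing in any. CREB3L2, an ER-membrane factor of the ATF6 type that in mice controls secretory genes of cartilage, was at 90.2 and 99.7 CPM in the follicular pools, against 143.5 and 162 CPM in the anestrus pools. The groups did not overlap (log2 fold change -0.69 ± 0.16, adjusted p = 0.218, edgeR), and CREB3L2 passed in 2 of the 11 alternative fits, without a count filter and without anestrus pool 1, at -0.77.

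The factors downstream of EIF2AK3 did not separate the groups. ATF4 was at 238 and 241 CPM in the follicular pools and 298 and 237 CPM in the anestrus pools. DDIT3 (also called CHOP), a stress factor known to promote cell death, was at 23.2 and 22.0 CPM in the follicular pools and 22.3 and 30.6 CPM in the anestrus pools. In both genes 1 anestrus pool stood above the other 3 pools. TRIB3, a pseudokinase induced by ATF4 and DDIT3, had 10 counts in follicular pool 1, 1 in follicular pool 2, 2 in anestrus pool 1 and 11 in anestrus pool 2, too few for a test.

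Among 7 genes of ER-associated degradation, 5 had a negative log2 fold change and 2 a positive one, with a median of -0.15. HERPUD1, an ER-membrane protein that organises the degradation complex, was at 122 and 99.9 CPM in the follicular pools, against 154 and 144 CPM in the anestrus pools, without overlap (log2 fold change -0.43 ± 0.17, adjusted p = 0.499, edgeR). The ubiquitin ligase SYVN1 was at 63.3 and 43.8 CPM in the follicular pools and 59.8 and 59.5 CPM in the anestrus pools. SEL1L, its adaptor, was at 32.7 and 38.6 CPM in the follicular pools and 20.3 and 38.03 CPM in the anestrus pools. For SEL1L anestrus pool 1 stood apart from the other 3 pools, and its log2 fold change of 0.29 ± 0.29 became -0.10 without that pool and 0.86 without anestrus pool 2, where it passed.

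EDEM1, a lectin that routes misfolded glycoproteins to degradation, was at 41.8 and 34.2 CPM in the follicular pools and 36.7 and 53.7 CPM in the anestrus pools, so the groups overlapped. The Derlins, membrane proteins of the exit channel, gave mixed values. DERL1 was at 94.5 and 84.7 CPM in the follicular pools and 91.9 and 91.7 CPM in the anestrus pools, and DERL2 at 53.1 and 52.2 CPM in the follicular pools, against 78.7 and 57.4 CPM in the anestrus pools. DERL3 was scarcely detected, with 3.98 and 1.74 CPM in the follicular pools and 2.87 and 1.499 CPM in the anestrus pools.

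The 2 members of the translocon differed more between pools than between groups. SEC61A1, the channel subunit, was at 87.7 and 58.3 CPM in the follicular pools and 99.6 and 70.7 CPM in the anestrus pools. SEC61B, its small partner, was at 51.6 and 31.8 CPM in the follicular pools and 55.5 and 30.0 CPM in the anestrus pools. In both, pool 1 was above pool 2 in each group by more than the group means differed.

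Other genes of the secretory pathway, taken from lists of genes outside the 36, had 0 calls in either direction in edgeR and in limma-voom, and 1 in DESeq2. The median log2 fold change was -0.26 for 17 translocon and signal peptidase genes, of which 15 were negative and 4 had an unadjusted p under 0.05. It was -0.32 for 30 other folding enzymes, with 24 negative and 6 at such a p, and -0.31 for 17 genes of N-glycan transfer and trimming, with 16 negative and 3 at such a p. For 21 genes of ER export and retrieval it was -0.21, with 18 negative and 7 at such a p. Degradation and stress genes outside the 36 lay nearer to 0, with a median of -0.04 for each list. Of 22 other degradation genes 14 were negative and 3 had such a p, and of 26 other stress transducers and targets 17 were negative and 1 had such a p. All of these genes with an unadjusted p under 0.05 (edgeR) were lower in the follicular phase. Over all genes tested, 50.1% had a negative log2 fold change and 4.29% had such a p in that direction.

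The 2 genes with the smallest p in each list were lower in value in the follicular phase. UGGT2, the relative of UGGT1, was at 10.98 and 13.2 CPM in the follicular pools, against 32.7 and 26.7 CPM in the anestrus pools (log2 fold change -1.30 ± 0.25, adjusted p = 0.0977, edgeR). It was the 1 gene of these lists that passed in DESeq2 (adjusted p = 0.00112). DAD1, a subunit of the oligosaccharyltransferase, had a log2 fold change of -0.54 ± 0.16, SEC61G, the smallest channel subunit, -0.59 ± 0.19, and SSR2, a translocon-associated protein, -0.43 ± 0.17. The ER peroxiredoxin PRDX4 had -0.79 ± 0.23 and the chaperone ERP29 -0.54 ± 0.17. SEC24D, of the vesicle coat that leaves the ER, had -0.64 ± 0.19, and KDELR3, a receptor that returns luminal chaperones from the Golgi, -0.68 ± 0.22. RNFT1 had -0.84 ± 0.23, UBXN4 -0.43 ± 0.17, the stress-induced factor ATF5 -0.91 ± 0.32 and NUPR1 -0.50 ± 0.25.

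Chaperones of the cytosol and mitochondria showed no such shift in values. Of 20 genes tested, 0 passed in edgeR, DESeq2 or limma-voom. In edgeR 0 had an unadjusted p under 0.05, beside 4.29% of all genes tested in the lower direction. The log2 fold change was negative for 11 and positive for 9, with a median of -0.01. Both follicular pools lay below both anestrus pools for 0 of them, beside 20.7% of all genes tested, and above for 1, beside 17.6%. The 2 with the smallest p were LONP1 (0.38 ± 0.24) and HSPE1 (-0.15 ± 0.17). HSPA8, the constitutive Hsp70 of the cytosol, named after its values were seen because it is the relative of HSPA5, was at 1829 and 1927 CPM in the follicular pools and 1781 and 1854 CPM in the anestrus pools. HSP90AA1, the cytosolic relative of HSP90B1 named in the same way, was at 3059 and 3532 CPM in the follicular pools and 3307 and 2964 CPM in the anestrus pools. The difference between ER and cytosolic chaperones was not tested.

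**Figure D4:**
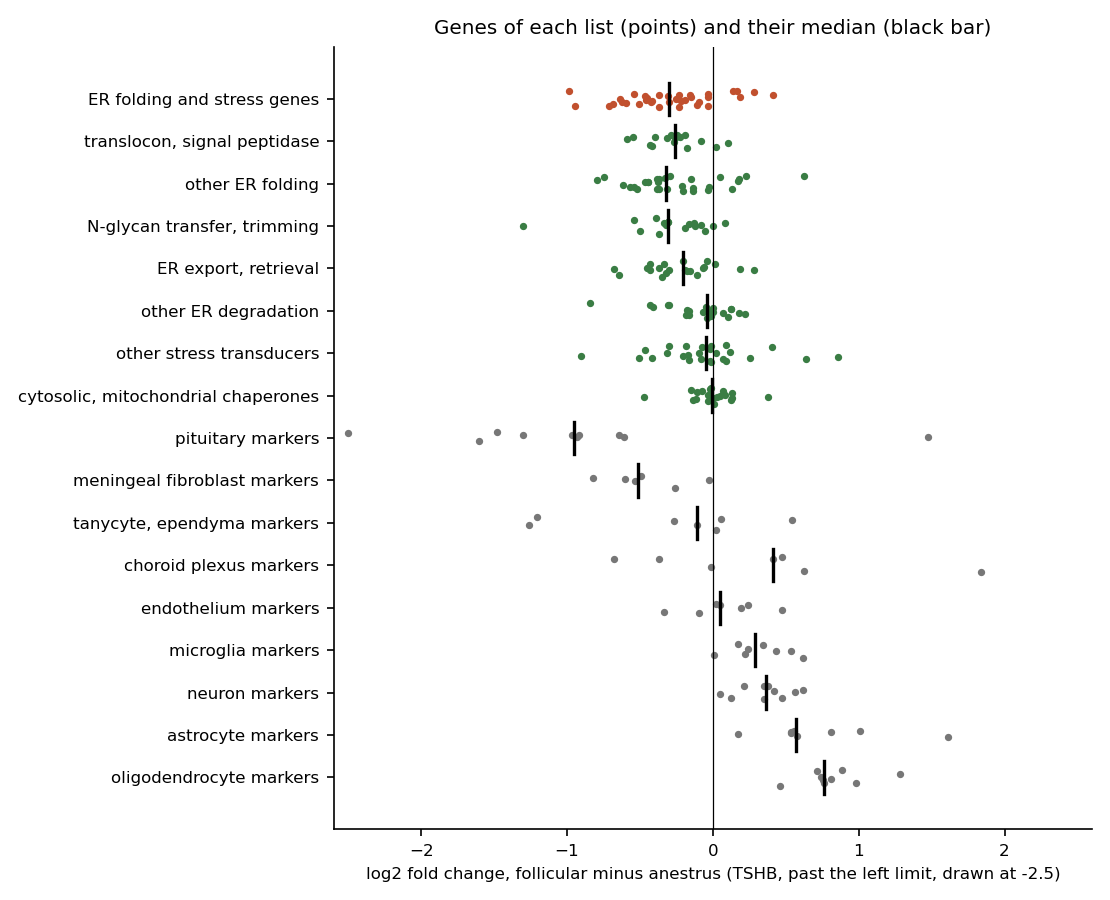
Log2 fold change, follicular minus anestrus (horizontal axis), of the genes of each list (points), with a black bar at the list's median, for the 35 members tested (orange), other secretory pathway and chaperone lists (green) and cell type markers (grey). The median is -0.30 for the members and -0.01 for cytosolic and mitochondrial chaperones, and the marker medians run from -0.95 for pituitary to 0.76 for oligodendrocytes.

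Markers of cell types moved between the same pools, and in bulk tissue fewer cells of a type and less RNA per cell cannot be told apart. Of 12 pituitary markers matched, 10 were tested, and 9 of these had a negative log2 fold change, with a median of -0.95. Their summed level was 5527 and 4516 CPM in the follicular pools, against 14739 and 11520.3 CPM in the anestrus pools, and none was at 0 in all pools. Most of that was CGA, the alpha subunit shared by the pituitary glycoprotein hormones, at 5232 and 4295 CPM in the follicular pools, against 13142 and 10309 CPM in the anestrus pools. TSHB, the thyrotropin beta subunit, was at 4.80 and 6.80 CPM in the follicular pools, against 1200.2 and 811 CPM in the anestrus pools. Meningeal fibroblasts are cells of the brain's covering. Their markers summed to 838 and 968 CPM in the follicular pools, against 1417 and 1268 CPM in the anestrus pools. Among these markers, DCN had a log2 fold change of -0.82 ± 0.16 and COL1A2 one of -0.49 ± 0.18.

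Markers of neurons and glia had higher values in the follicular phase. The median log2 fold change was 0.37 for 10 neuron markers (SYP 0.42 ± 0.15, STMN2 0.12 ± 0.17), 0.57 for 8 astrocyte markers (GFAP 1.01 ± 0.15, S100B 0.56 ± 0.16) and 0.76 for 9 oligodendrocyte markers (MBP 0.71 ± 0.50). It was 0.29 for microglia, 0.05 for endothelium, -0.11 for tanycytes and ependyma and 0.41 for choroid plexus markers. Both follicular pools lay above both anestrus pools for 9 of 9 oligodendrocyte, 8 of 8 astrocyte, 7 of 10 neuron and 3 of 8 microglia markers. Over all genes tested that share was 17.6%. In these lists 8, 5, 4 and 1 genes were higher at an unadjusted p under 0.05 (edgeR). In DESeq2 2 oligodendrocyte markers passed, and 0 in edgeR or limma-voom, while 1 astrocyte marker passed in each. Among the tanycyte markers DIO2, the deiodinase that activates thyroid hormone, named after its values were seen, was at 115 and 105 CPM in the follicular pools, against 230.1 and 276 CPM in the anestrus pools, and it passed (log2 fold change -1.20 ± 0.17, adjusted p = 0.0226, edgeR). DIO2 does not stand for its list. Of the 7 tanycyte and ependyma markers, 4 had a negative and 3 a positive log2 fold change, the highest 0.54. Both follicular pools lay below both anestrus pools for 2 of them and above for 2. The choroid plexus markers summed to 376 and 128 CPM in the follicular pools and 164 and 148 CPM in the anestrus pools, so follicular pool 1 stood above the other 3 pools. The part of these shifts in the values of HSPA5 and the other members was not tested.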

How the data were processed

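The authors' table holds raw counts of reads per gene, whole numbers as deposited, for 2 follicular and 2 anestrus libraries. Per the labels' protocols, TriReagent was used for extraction and a stranded mRNA kit (Truseq) for the libraries. The submitters' processing notes list, with no roles, featureCounts 2.0.0, SAMtools 1.9, Bowtie2 2.3.5.1, TopHat2 2.1.1, FastQC and bcl2fastq 2.20. Genome build, annotation, strand setting and handling of multiply mapped reads are not stated there. No coordinates are printed for that reason, and counts of genes with near-identical copies, or with an overlapping or antisense neighbour, are uncertain. Gene identifiers and symbols of all 36 members matched the RefSeq table of the ARS1.2 assembly.

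Genes were kept with filterByExpr (minimum count 10, minimum total 15), which left 16756. After TMM scaling, robust glmQLFit and glmQLFTest of edgeR 4.0.16 (R 4.3.3) were run, with 2 residual degrees of freedom. This fit adds information on spread from all genes to that of each gene, so standard errors and intervals rest on more than those 2. Benjamini-Hochberg adjustment covered all genes tested, and an adjusted p under 0.05 is a call. Log2 fold changes are follicular minus anestrus, ± their standard error, which is the log2 fold change over the square root of F. Levels are CPM on TMM-scaled totals. The common biological coefficient of variation was 0.201.

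On counts simulated for this comparison (16571 genes tested, 200 changed), 26% of genes changed 2-fold were called, 98% at 4-fold, and 4 of 119 calls were false. The simulation gave every gene the same spread and no deviation shared between pools, unlike the data, so these shares are a rough guide. The members, lists and alternatives were chosen with earlier results of these data known. The lists held 254 entries, of which 241 matched a symbol directly. All members are named. From each pathway list the called genes or the 2 with the smallest p are named, and from 5 marker lists the called genes and the 2 with the most counts, of which 1 is not reported here. The other marker lists are given by their median or sum, beside DIO2. Alternatives in edgeR were RLE scaling (size factors of the DESeq2 type), no filter, and a mean of 1 CPM as the filter. Each library left out and the replicate number as a block were also edgeR fits. The DESeq2 Wald test (DESeq2 1.42.0) and limma-voom (limma 3.58.1) were the other alternatives. The gaps between pools of a group exceeded sampling noise (chi-square per degree of freedom 18.9 in follicular and 29.6 in anestrus).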

Additional observations from a re-analysis of the deposited data

How the results depend on the processing

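HSPA5 was called in 9 of 11 alternatives, at log2 fold changes of -0.94 to -0.91, and its call was lost when either follicular pool was left out, which leaves 1 pool in that group, assumed to vary like the other group. All genes called numbered 34, and 300 without a count filter, 143 with the DESeq2 Wald test, and 4 to 810 with 1 pool left out. Members called numbered 1, and 4 without a filter, 3 with DESeq2 and 0 to 6 with 1 pool left out. Members with a positive log2 fold change numbered 5, and 3 to 10 with 1 pool left out. Of 35 members, 19 kept their sign in all 11 alternatives. The cause of these shifts was not tested. The labels give no pairing: pool numbers name random mixes, and the anestrus pools are numbered one way in the titles and the other way in the library names. Deviations of same-numbered pools correlated across genes at 0.328 by library name. The titles swap the anestrus pools, so the value by title, -0.328, is the same one with its sign reversed. Over the 35 members alone the correlation was 0.534 by library name. By library name 16 members had pool 1 above pool 2 in both groups, 8 below and 11 opposite. Such counts were not made over all genes. With the replicate number as a block, all genes called numbered 90 by library name and 130 by title, and members called 2 and 3. In data simulated at this depth, with the same spread for every gene, 26% of 2-fold and 6% of 1.5-fold changes were called. Those shares need not hold for genes with another spread. SDF2L1, DERL3 and TRIB3 had few counts.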
